A study of Rattus norvegicus with 12 samples.

Results

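The nuclear genes of oxidative phosphorylation were read in the pituitary and the hypothalamus of adult male rats. Members were all probes whose platform gene symbol starts with Nduf, Uqcr or Atp5, starts with Cox4 to Cox8, or is Sdha, Sdhb, Sdhc or Sdhd. The rule found 69 probes for 69 genes, of 13337 genes named on the array, 13793 probes with a gene symbol and 22523 probes in all. Of these, 37 belonged to complex I, counting its assembly factors and 2 related genes, 4 to complex II, 4 to complex III, 11 to complex IV and 13 to the ATP synthase.

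RNA from Wistar males on postnatal day 70 was hybridised to Illumina RatRef-12 BeadChips, on which each probe reads 1 transcript region. There were 4 groups of 3 arrays: pituitary TCDD, pituitary vehicle, hypothalamus TCDD and hypothalamus vehicle. TCDD is a dioxin that binds the aryl hydrocarbon receptor. It or the vehicle was given by mouth to the dams on gestation day 15, so the males had met the agent only through their mothers. The sources disagree on the dose, 1 µg per kg in one and 1 mg per kg in corn oil in the other, so the dose is left unsettled here. Litter, dam and animal are not given for each array, and p-values therefore measure the spread between arrays, which may be technical. Arrays of the pituitary and the hypothalamus may also share animals. The pituitary arrays detected 9934 to 10371 probes each and the hypothalamus arrays 10852 to 11438, at a detection p under 0.05. The tissue labels matched the marker genes, with 8 of 8 tested pituitary endocrine markers higher in the pituitary and 8 of 8 tested hypothalamic neuron markers lower there, on the vehicle arrays (limma, adjusted p under 0.05).

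Oxidative phosphorylation is the last stage of respiration. Complex I takes electrons from NADH and complex II from succinate, ubiquinone carries them to complex III, cytochrome c carries them to complex IV, and the proton gradient built along the way drives the ATP synthase. Most subunits come from nuclear genes that are active in nearly every cell. A few complex IV subunits have a separate form known from heart and skeletal muscle, such as Cox6a2 and Cox8b. Neurons and endocrine cells both depend on this pathway for vesicle release and for keeping ion gradients.

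Promoter sequence was at hand for 60 of the 69 members, from RefSeq, build GRCr8, covering 250 bases before to 50 bases after each gene start. Shown here are the 200 bases before the start for 5 members chosen after their tissue values and motif matches were seen. They are the muscle-type forms Cox6a2 and Cox8b, the widely expressed Cox8a, and Sdha and Uqcrc1, which were lower in the pituitary and hold an NRF1 motif. Capitals mark matches, on either strand, to 6 short motifs of factors known to act on respiratory or muscle genes. The regions are chr1:192219717-192219916 (minus strand) for Cox6a2, chr1:205408274-205408473 (minus) for Cox8b, chr1:213833624-213833823 (minus) for Cox8a, chr1:30764353-30764552 (plus) for Sdha and chr8:118468023-118468222 (plus) for Uqcrc1.
Cox6a2: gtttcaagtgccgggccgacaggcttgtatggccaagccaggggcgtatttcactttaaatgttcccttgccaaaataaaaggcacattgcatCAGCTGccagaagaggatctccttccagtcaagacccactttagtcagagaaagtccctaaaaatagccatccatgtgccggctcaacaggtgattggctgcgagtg
Cox8b: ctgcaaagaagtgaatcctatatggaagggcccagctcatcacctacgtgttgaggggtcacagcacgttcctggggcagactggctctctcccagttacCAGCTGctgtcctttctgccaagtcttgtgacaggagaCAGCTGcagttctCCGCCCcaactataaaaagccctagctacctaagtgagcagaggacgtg
Cox8a: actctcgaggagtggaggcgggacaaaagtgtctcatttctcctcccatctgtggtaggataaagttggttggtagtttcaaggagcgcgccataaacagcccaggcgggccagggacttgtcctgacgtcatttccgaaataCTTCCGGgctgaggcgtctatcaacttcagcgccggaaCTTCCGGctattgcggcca
Sdha: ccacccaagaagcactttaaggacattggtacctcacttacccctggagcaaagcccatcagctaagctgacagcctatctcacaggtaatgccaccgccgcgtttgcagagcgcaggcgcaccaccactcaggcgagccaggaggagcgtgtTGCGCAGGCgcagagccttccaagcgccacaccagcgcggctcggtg
Uqcrc1: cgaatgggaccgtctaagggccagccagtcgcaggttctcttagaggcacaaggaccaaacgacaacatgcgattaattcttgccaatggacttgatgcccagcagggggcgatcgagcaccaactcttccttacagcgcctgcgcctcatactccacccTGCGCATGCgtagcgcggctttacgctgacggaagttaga

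The muscle-type promoters held the E box CAGCTG, which is the kind bound by myogenic factors, at 1 place in Cox6a2 and at 2 places in Cox8b, which also held a GC box read as CCGCCC. The 2 matches in Cox8a are the ETS core, read here as CTTCCGG and of the kind bound by GABP. Sdha and Uqcrc1 each held 1 NRF1 motif within these bases, TGCGCAGGC and TGCGCATGC. Over the whole windows, the NRF1 motif TGCGCANGC was found in 15 of the 60 member promoters (25%), against 5.33% of 19005 promoters of protein-coding genes and 4.22% of all 27457. The ETS core CCGGAAG was found in 28.3% of member promoters, against 11.2% of protein-coding ones and 9.22% of all. The YY1 core AAGATGGCG was found in 10% of members, against 2.29% and 1.93%, and the ERR site TCAAGGTCA in 3.33% of members, against 0.353% and 0.412%. The GC box GGGCGG stood in 45% of members, against 43.1% and 34.9%, and the E box CAGCTG in 16.7%, against 15.3% and 15.1%. No match overlapped a match of another motif, and member promoters averaged 57.2% G and C, against 55.1% in protein-coding promoters and 53.1% in all. The NRF1 motif stood in 19.4% of the promoters of members lower in the pituitary in both tissue contrasts below (6 of 31) and in 31% of the others (9 of 29). The protein-coding background was added after the first shares were seen. Matches are descriptions of these letters, and binding was not measured.

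Of the 69 members, 67 were detected on at least 3 of the 12 arrays and could be tested between tissues, and 60 were detected on all 12. The 2 that were detected on no array were Cox8c, a form known from testis, and Ndufs4, an accessory subunit of complex I that respiring cells need, so this probe says little about its gene. The other 7 were mostly dim in the pituitary: Cox6a2, Cox6c, Ndufb4 and Atp5mc3 were detected on 0 of 6 pituitary arrays, Cox8b on 1, and Atp5mk and Ndufs6-ps1 on 2. Since such probes could be tested only through the tissue where they are brighter, counts below lead with the 60 members detected on all 12 arrays, a choice made after the detection counts were seen.

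Most subunit transcripts were lower in the pituitary than in the hypothalamus. On the vehicle arrays, 38 of the 60 members fell and 5 rose in the pituitary (limma, adjusted p under 0.05 over all 12071 probes tested). Among all probes detected on all 12 arrays, 26.0% were lower and 40.6% higher. The median log2 difference, pituitary minus hypothalamus, was -0.41 over the 60 members and 0.16 over all such probes. Over all 67 tested members the counts were 41 lower and 5 higher, beside 28.5% and 35.6% of all tested probes. The tissues differ in cell makeup, and in such bulk RNA fewer cells of a type and less RNA per cell cannot be told apart. On the vehicle arrays 10 of 11 tested pan-neuronal markers, 5 of 5 astrocyte and 5 of 5 oligodendrocyte markers were also lower in the pituitary. The summed signal of the pan-neuronal markers was 8215 to 9670 on the pituitary vehicle arrays and 27737 to 32604 on the hypothalamus vehicle arrays, and its part in the subunit result was not tested. On the TCDD arrays it was 9225 to 10009 in the pituitary and 30599 to 35504 in the hypothalamus.

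The TCDD arrays, which the vehicle contrast does not use as samples, gave the same order of tissues. There 38 of the 60 members were lower and 2 higher in the pituitary, beside 26.5% lower and 40.9% higher among probes detected on all 12 arrays. Over all 67 tested members 41 were lower and 2 higher, beside 28.8% and 35.8% of tested probes. The median difference was -0.36 over the 60 members and 0.17 over all probes detected on all 12 arrays. In both contrasts, 35 of the 60 members were lower and 2 were higher, Ndufv3 and Ndufaf1, beside 23.4% lower and 35.5% higher among probes detected on all 12 arrays. The sign of the difference matched for 55 of the 60. The 2 contrasts share their normalization and the fit's estimate of spread.

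The size of the shift for the 60 members together was the same on both sets of arrays to within the spread. Their mean log2 signal was 11.61, 11.60 and 11.60 on the pituitary TCDD arrays and 11.58, 11.61 and 11.57 on the pituitary vehicle arrays, against 11.93, 11.94 and 11.99 on the hypothalamus TCDD arrays and 11.93, 11.95 and 11.95 on the hypothalamus vehicle arrays. No pituitary array overlapped a hypothalamus array. The pituitary minus hypothalamus difference of these means was -0.35 on TCDD arrays and -0.36 on vehicle arrays. It was -0.37 and -0.39 for complex I, -0.56 and -0.39 for complex II, -0.21 and -0.26 for complex III, -0.43 and -0.44 for complex IV and -0.21 and -0.21 for the ATP synthase, each with TCDD arrays first.

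**Figure D1:**
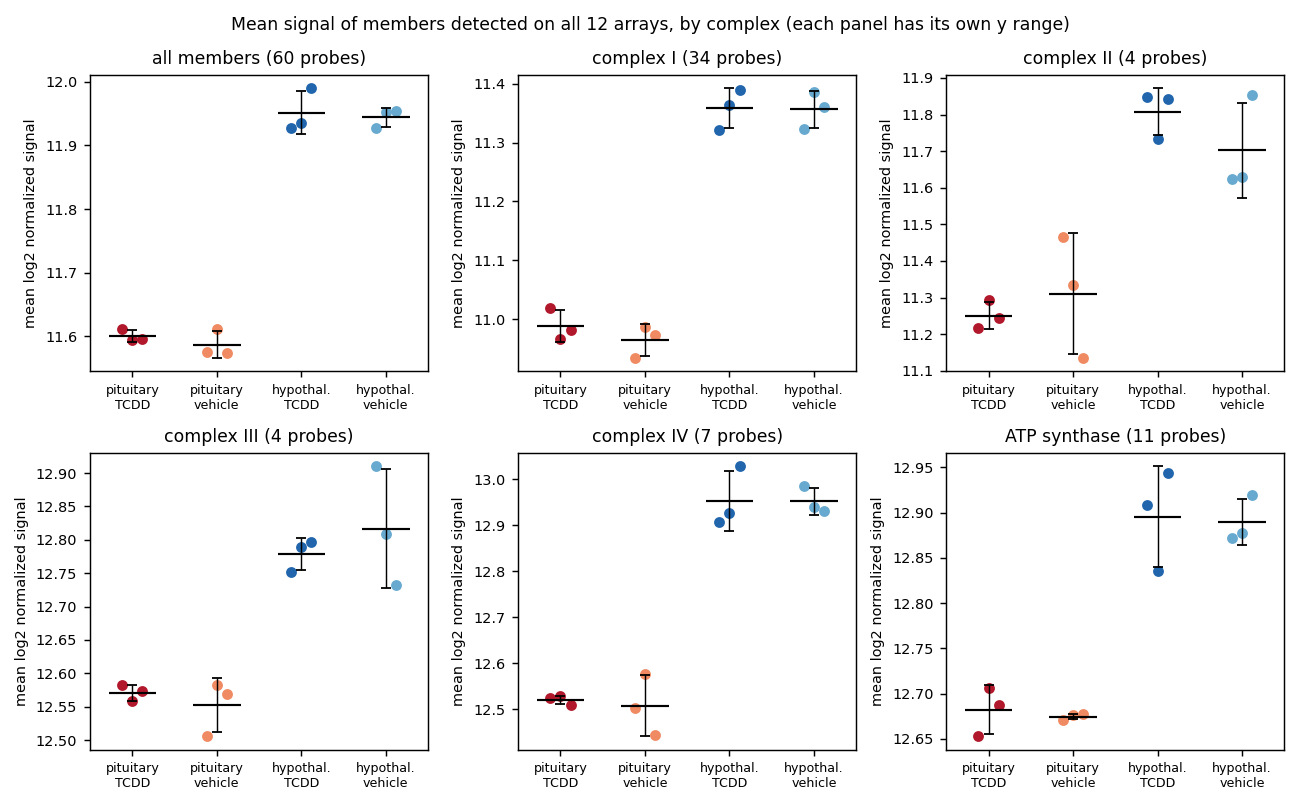
Mean log2 normalized signal of the members detected on all 12 arrays, for all 60 members and for each complex, with 1 point per array, the group mean as a line and the SD as a bar (n = 3 arrays). In the panel of all members the pituitary points lie at 11.57 to 11.61 and the hypothalamus points at 11.93 to 11.99.

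The scale of this shift depends on how arrays are brought to one level. With median scaling in place of quantile normalization, the median of all tested probes moved to -0.10 in place of 0.10 on TCDD arrays and to -0.04 in place of 0.09 on vehicle arrays. The medians of the members moved with it, to -0.52 in both. All tested probes then split 2808 higher to 4441 lower on TCDD arrays, in place of 4322 to 3479, and 3214 to 4000 on vehicle arrays, in place of 4303 to 3439. Members stayed below the all-probe median under median scaling, cyclic loess and quantile normalization.

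Complex I held the largest single differences among members detected on all arrays. Ndufa8, an accessory subunit on the intermembrane space side, had log2 signals of 11.01, 10.87 and 11.05 on pituitary TCDD arrays and 10.93, 11.13 and 10.96 on pituitary vehicle arrays. Its hypothalamus values were 12.45, 12.49 and 12.45 with TCDD and 12.35, 12.39 and 12.23 with vehicle. Every pituitary array thus lay more than 1 log2 unit below every hypothalamus array. The differences were -1.49 (SE 0.092, limma adjusted p = 2.18e-08) on TCDD arrays and -1.32 (SE 0.092, limma adjusted p = 7.21e-08) on vehicle arrays, or 2.81-fold and 2.49-fold lower. Ndufb6, an accessory subunit of the membrane arm, was 2.09-fold and 2.34-fold lower (limma adjusted p = 6.05e-06 and 1.72e-06).

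The core of complex I, where electrons travel from NADH to ubiquinone, moved the same way. Of 6 core members tested, 6 fell on TCDD arrays and 5 on vehicle arrays, beside 28.8% and 28.5% of all tested probes. Ndufs7 carries the last iron-sulphur cluster before ubiquinone. It measured 10.73, 10.61 and 10.70 on pituitary TCDD arrays and 10.36, 10.55 and 10.56 on pituitary vehicle arrays, against 11.29, 11.50 and 11.25 on hypothalamus TCDD arrays and 11.55, 11.63 and 11.25 on hypothalamus vehicle arrays. The tissues did not overlap on either set, and the differences were -0.67 and -0.99 (SE 0.116 each, limma adjusted p = 2.51e-04 and 9.05e-06). Ndufv1, which binds NADH and the flavin and was chosen for mention after its values were seen, differed by -0.83 and -0.95 (limma adjusted p = 1.14e-05 and 3.63e-06). Ndufs1, the largest iron-sulphur subunit and also named after its values were seen, was the core member that missed the threshold on vehicle arrays, at -0.11 (limma adjusted p = 0.392), against -0.32 on TCDD arrays (limma adjusted p = 0.0237). That TCDD call was lost without pituitary TCDD replicate 1 or 3 or hypothalamus TCDD replicate 1 or 3, with an adjusted p of up to 0.0747.

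Of all tested probes, 28.8% were lower and 35.8% higher on TCDD arrays, and 28.5% and 35.6% on vehicle arrays. Among the 21 accessory members tested, 13 fell in each contrast and 1 rose in each. The vehicle count includes Ndufb4 (limma adjusted p = 0.0353), which was detected on 0 of 6 pituitary arrays. It could be tested only through the hypothalamus, and its bound there is at least 1.03-fold. The one that rose was Ndufv3, a small subunit of the NADH-binding module whose transcript is known in alternative forms. Its values were 8.77, 8.79 and 8.88 on pituitary TCDD arrays and 8.40, 8.80 and 8.98 on pituitary vehicle arrays, against 7.58, 7.94 and 7.63 on hypothalamus TCDD arrays and 7.82, 7.96 and 7.75 on hypothalamus vehicle arrays. All 6 pituitary arrays were above all 6 hypothalamus arrays, while its partner in the module, Ndufv1, lay the other way. Ndufv3 was 2.14-fold higher on TCDD arrays (SE 0.144 on the log2 scale, limma adjusted p = 2.24e-05) and 1.84-fold higher on vehicle arrays (limma adjusted p = 1.52e-04). Which of the transcript forms the probe reads is not given in the sources used here.

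The assembly factors, which build complex I but are not part of it, had calls in both directions. Of 7 tested, 3 fell and 1 rose on TCDD arrays, beside 28.8% and 35.8% of all tested probes, and 4 fell and 3 rose on vehicle arrays, beside 28.5% and 35.6%. With 7 genes these counts are not read as a result about the group. Ndufaf1, an assembly factor of the membrane arm, had 7.94, 7.82 and 7.75 on pituitary TCDD arrays and 7.80, 7.74 and 8.05 on pituitary vehicle arrays, against 7.21, 7.31 and 7.22 and 7.28, 7.44 and 7.37 on the hypothalamus TCDD and hypothalamus vehicle arrays. It was higher in the pituitary on every array, by 0.59 and 0.50 (SE 0.103 each, limma adjusted p = 2.49e-04 and 9.59e-04). Ndufaf5, an enzyme that modifies Ndufs7, was lower by both contrasts, at -0.49 and -0.62 (limma adjusted p = 0.0309 and 0.00887), but its TCDD call was lost without any 1 of the pituitary TCDD arrays or hypothalamus TCDD replicate 1 or 2, with an adjusted p of up to 0.0849. Ndufaf3 was higher on vehicle arrays at 0.39 (limma adjusted p = 0.0136), with 0.17 on TCDD arrays (limma adjusted p = 0.232). The vehicle call was lost under median scaling (0.18, adjusted p = 0.315), which turned the TCDD value to -0.10 (-0.095), under cyclic loess (0.25, adjusted p = 0.0781), and without pituitary vehicle replicate 1 or hypothalamus vehicle replicate 1. Its partner Ndufaf4 differed by -0.19 on TCDD arrays (limma adjusted p = 0.0765) and 0.30 on vehicle arrays (limma adjusted p = 0.0102). With median scaling Ndufaf4 was lower on TCDD arrays, at -0.51 (adjusted p = 6.15e-04), and no longer passed on vehicle arrays, at 0.12 (0.115, adjusted p = 0.344). Cyclic loess gave -0.37 (adjusted p = 0.00297) and 0.13 (adjusted p = 0.209). Ndufaf6 differed by 0.15 and -0.44 (limma adjusted p = 0.435 and 0.0328), and its vehicle call was lost without pituitary vehicle replicate 1 or 2 or hypothalamus vehicle replicate 2, with an adjusted p of up to 0.106. The tissue values of Ndufaf3, Ndufaf4, Ndufaf5 and Ndufaf6 are given here after they were seen. Outside the Nduf names, 3 of 5 tested complex I assembly genes were lower and 0 higher in each contrast, beside the shares of all tested probes given above. With 5 genes this is not read as a result about them. Of 12 tested complex IV assembly genes, 2 were lower in both contrasts, and 4 on TCDD arrays and 5 on vehicle arrays were higher, which is near the 35.8% and 35.6% of all tested probes called higher.

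**Figure D2:**
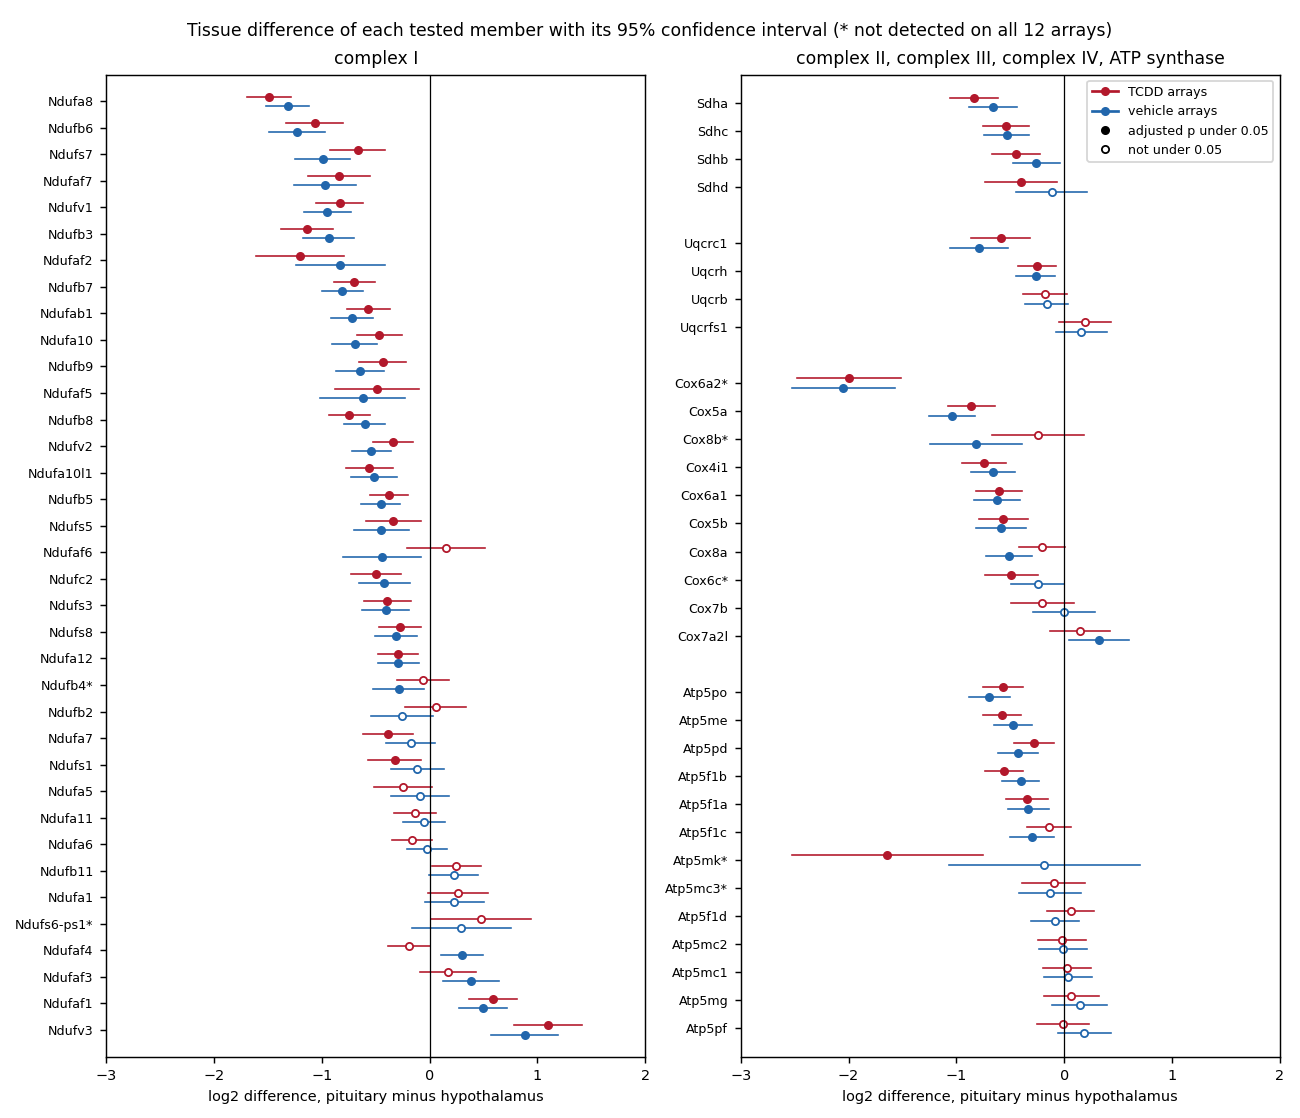
Log2 difference between pituitary and hypothalamus for the 67 tested members, by complex, with TCDD arrays in red above vehicle arrays in blue; bars are 95% confidence intervals from the fit, filled points have an adjusted p under 0.05, and an asterisk marks a member not detected on all 12 arrays. Most points lie left of 0, and Ndufv3 and Ndufaf1 lie right of 0 on both sets.

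Complex II also serves as succinate dehydrogenase of the citric acid cycle. Of its 4 members, 4 were lower in the pituitary on TCDD arrays and 3 on vehicle arrays. The shares of all tested probes called lower were 28.8% and 28.5%. With 4 genes these counts are not read as a result about the complex. Sdha, the flavoprotein that oxidises succinate, measured 10.12, 10.31 and 10.30 on pituitary TCDD arrays and 10.49, 10.36 and 10.29 on pituitary vehicle arrays, against 11.11, 11.04 and 11.08 on hypothalamus TCDD arrays and 10.94, 10.96 and 11.21 on hypothalamus vehicle arrays. The tissues were separate on both sets, by -0.84 and -0.66 (SE 0.103 each, limma adjusted p = 1.25e-05 and 1.06e-04). Sdhc, a membrane anchor, differed by -0.54 on each set (limma adjusted p = 3.21e-04 and 3.64e-04). Sdhb, the iron-sulphur subunit, differed by -0.45 and -0.26 (limma adjusted p = 0.00184 and 0.0401). The vehicle call for Sdhb was lost without pituitary vehicle replicate 2 or 3, hypothalamus vehicle replicate 2 or 3, or pituitary TCDD replicate 2 or 3, with an adjusted p of up to 0.148. Sdhd, the other anchor, differed by -0.40 and -0.12 (limma adjusted p = 0.034 and 0.526). Its TCDD call was lost without any 1 of the 3 pituitary TCDD arrays, or without hypothalamus TCDD replicate 1 or 3, with an adjusted p of up to 0.0962.

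Of the 4 complex III members, 2 fell in both contrasts, beside 23.4% of probes detected on all 12 arrays. With 4 genes this count is not read as a result about the complex. Uqcrc1, a core protein facing the matrix, differed by -0.59 and -0.79 (SE 0.124 each, limma adjusted p = 0.00107 and 1.15e-04). Uqcrh, the hinge protein near cytochrome c1, differed by -0.25 and -0.27 (SE 0.0821 each, limma adjusted p = 0.0159 and 0.0125), and its TCDD call was lost without pituitary TCDD replicate 1 (adjusted p = 0.0557) or hypothalamus TCDD replicate 3 (adjusted p = 0.0572). Uqcrb and the Rieske protein Uqcrfs1, named after their values were seen, did not pass the test, at -0.18 and -0.16 for Uqcrb and 0.19 and 0.16 for Uqcrfs1 on TCDD and vehicle arrays. Uqcrb passed on both sets with cyclic loess (-0.28 and -0.23, adjusted p = 0.0186 and 0.0419) and on TCDD arrays with median scaling (-0.29, adjusted p = 0.0354). Uqcrfs1 turned to -0.11 and -0.07 with median scaling and to -0.03 (-0.031) and -0.03 (-0.025) with cyclic loess, and passed on TCDD arrays without pituitary TCDD replicate 2 (0.30, adjusted p = 0.0304).

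Of the 7 complex IV members detected on all 12 arrays, 4 were lower and 0 higher on TCDD arrays. On vehicle arrays 5 were lower and 1 higher. Among all such probes 26.5% were lower and 40.9% higher on TCDD arrays, and 26.0% and 40.6% on vehicle arrays. With 7 genes these counts are not read as a result about the complex. Cox4i1, Cox5a, Cox5b and Cox6a1 were lower in both contrasts, as was the dim Cox6a2, given below. Cox5a, a matrix-side subunit, measured 11.52, 11.39 and 11.47 on pituitary TCDD arrays and 11.26, 11.46 and 11.56 on pituitary vehicle arrays, against 12.24, 12.37 and 12.35 on hypothalamus TCDD arrays and 12.46, 12.56 and 12.38 on hypothalamus vehicle arrays. The gap between tissues was wider than the whole range within either, at -0.86 and -1.04 (SE 0.0988 each, limma adjusted p = 7.02e-06 and 1.27e-06). Cox4i1, the largest nuclear subunit, differed by -0.75 and -0.66 (limma adjusted p = 1.48e-05 and 4.52e-05). Cox5b, the zinc-binding subunit, differed by -0.57 and -0.59 (limma adjusted p = 4.34e-04 and 3.35e-04). Cox7b did not pass, at -0.20 and 0.00 (-0.002), and Cox7a2l, a factor that joins complexes III and IV into supercomplexes, had 0.15 on TCDD arrays (limma adjusted p = 0.321) and 0.32 on vehicle arrays (limma adjusted p = 0.0406). The Cox7a2l call was lost under median scaling (0.08, adjusted p = 0.694) and cyclic loess (0.12, adjusted p = 0.416), which also turned its TCDD value to -0.16 and -0.08, and without any single pituitary array except pituitary vehicle replicate 3, or without hypothalamus vehicle replicate 1 or 2.

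The muscle-type form Cox6a2 was detected on 0 of 6 pituitary arrays, where its values were 5.09, 4.70 and 4.90 with TCDD and 4.87, 4.94 and 5.18 with vehicle. It was detected on 6 of 6 hypothalamus arrays, with 6.62, 6.97 and 7.10 on TCDD arrays and 6.44, 7.37 and 7.33 on vehicle arrays. Against the lowest detected signal on each pituitary array, Cox6a2 was at least 2.54-fold lower in the pituitary on TCDD arrays. On vehicle arrays it was at least 2.95-fold lower. The fitted differences were -1.996 and -2.049 (limma adjusted p = 5.08e-06 and 4.17e-06). These p-values rest on undetected pituitary values, and the probe could be tested only through the hypothalamus. The widely expressed form Cox6a1 was also lower in the pituitary, by 1.52-fold and 1.54-fold (SE 0.0983 on the log2 scale, limma adjusted p = 1.50e-04 and 1.12e-04), with values of 13.88, 13.92 and 13.94 on pituitary TCDD arrays and 13.86, 13.99 and 13.89 on pituitary vehicle arrays, against 14.48, 14.59 and 14.47 on hypothalamus TCDD arrays and 14.67, 14.60 and 14.35 on hypothalamus vehicle arrays. Of 9 striated muscle markers on the array, Actc1, Ckm, Mb and Myh2 were detected on no array, and the summed signal of the 9 was 1179 to 1425 on pituitary TCDD arrays and 1047 to 1187 on pituitary vehicle arrays, against 1341 to 1670 on hypothalamus TCDD arrays and 1438 to 1930 on hypothalamus vehicle arrays. The part of muscle cells in the Cox6a2 signal was not tested. The tissue difference of Cox6a2 minus that of Cox6a1 was -1.395 on TCDD arrays and -1.423 on vehicle arrays. Without background correction it was only -0.44 and -0.438.

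The other muscle-type form, Cox8b, was dimmer. Pituitary values were 5.53, 5.16 and 4.94 with TCDD, none detected, and 5.50, 5.10 and 5.05 with vehicle, 1 detected. On hypothalamus TCDD arrays it had 5.28, 5.35 and 5.73, and on hypothalamus vehicle arrays 6.37, 5.99 and 5.73, all 6 detected. The vehicle groups were thus separate and the TCDD groups overlapped. The tissue difference was -0.82 on vehicle arrays (SE 0.197, limma adjusted p = 0.00282) and -0.24 on TCDD arrays (limma adjusted p = 0.297), where the pituitary has only a bound and no fold is given. Cox8a, the widely expressed form, was lower in the pituitary on vehicle arrays at -0.51 (SE 0.0977, limma adjusted p = 5.13e-04), with -0.21 on TCDD arrays (limma adjusted p = 0.0807), where every pituitary array was still below every hypothalamus array. The Cox8a TCDD difference passed the threshold under median scaling (-0.35, adjusted p = 0.0195), cyclic loess (-0.33, adjusted p = 0.00994), no background correction (-0.205, adjusted p = 0.0396), the robust trend option of eBayes (adjusted p = 0.0354) and without hypothalamus vehicle replicate 1 (adjusted p = 0.0439). Cox6c, an obligatory subunit, was detected on 0 pituitary arrays and 4 of 6 hypothalamus arrays, so the fitted -0.49 and -0.25 rest on values near background, with an adjusted p of 0.00211 on TCDD arrays and 0.0758 on vehicle arrays (limma).

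**Figure D3:**
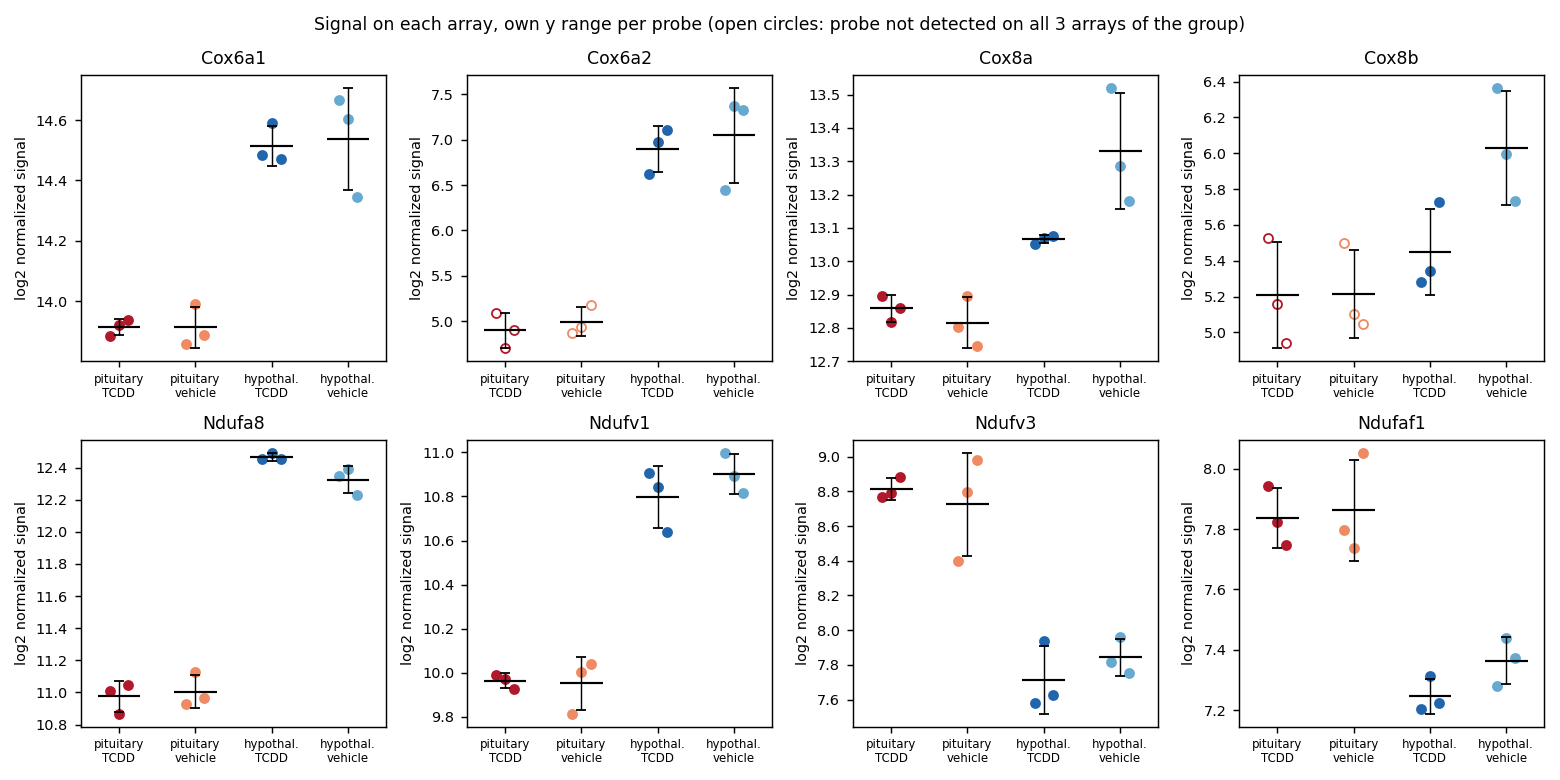
Log2 normalized signal on each array for 8 members, with 1 point per array, the group mean as a line and the SD as a bar (n = 3), and open circles where the probe was not detected on all 3 arrays of a group. Cox6a2 lies at 4.70 to 5.18 on pituitary arrays and 6.44 to 7.37 on hypothalamus arrays, and Ndufv3 and Ndufaf1 are higher on all pituitary arrays.

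The ATP synthase had a mean shift close to that of complex III and smaller than those of complexes I, II and IV. Members without a call stood in each of its parts. In the F1 head, which makes ATP, the catalytic beta subunit is Atp5f1b. It was chosen for mention after its tissue values were seen, and had the largest difference among the head members on both sets. Atp5f1b had 13.31, 13.40 and 13.34 on pituitary TCDD arrays and 13.54, 13.42 and 13.44 on pituitary vehicle arrays, against 13.96, 13.89 and 13.87 on hypothalamus TCDD arrays and 13.90, 13.83 and 13.89 on hypothalamus vehicle arrays. It was lower on every pituitary array, by -0.56 and -0.41 (SE 0.081 each, limma adjusted p = 5.36e-05 and 7.51e-04). In the stalk that holds the head still, Atp5po differed by -0.57 and -0.69 (SE 0.0861 each, limma adjusted p = 8.09e-05 and 1.48e-05) and Atp5pd by -0.28 and -0.43 (limma adjusted p = 0.0125 and 7.24e-04). The Atp5pd call on TCDD arrays was lost without hypothalamus TCDD replicate 3 (adjusted p = 0.0554). Atp5me, a membrane subunit tied to dimers of the enzyme, differed by -0.57 and -0.47 (limma adjusted p = 4.58e-05 and 2.41e-04). Atp5f1d of the head (0.06 and -0.086), Atp5pf of the stalk (-0.01 and 0.186) and Atp5mg of the membrane part (0.065 and 0.145), named after their values were seen, passed in neither contrast. Of 4 head members 2 fell on TCDD arrays and 3 on vehicle arrays, of 3 stalk members 2 and 2, and of 3 membrane members outside the c-ring 2 and 1. The membrane count on TCDD arrays includes Atp5mk, given below, which was detected on 2 of 6 pituitary arrays. Of all tested probes 28.8% and 28.5% were lower. Counts of so few genes are not read as results about the parts.

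The c-ring, the rotor in the membrane, gave no call in either contrast. Its genes Atp5mc1, Atp5mc2 and Atp5mc3 encode the same mature protein behind different leader sequences. Atp5mc1 differed by 0.02 on TCDD arrays (95% interval -0.2 to 0.245) and 0.04 on vehicle arrays (-0.186 to 0.259), and Atp5mc2 by -0.02 and -0.01 (limma adjusted p = 0.860, 0.773, 0.884 and 0.943). The sign of Atp5mc1 turned under median scaling and cyclic loess, to -0.04 on each set for both, except -0.02 under cyclic loess on vehicle arrays. Atp5mc2 passed the threshold on TCDD arrays with median scaling alone, at -0.31 (adjusted p = 0.0371). Atp5mc3 was detected on 3 of 12 arrays, none of them pituitary, and differed by -0.10 and -0.14 (limma adjusted p = 0.529 and 0.391). Atp5mk, a small membrane subunit named here after its values were seen, differed by -1.64 on TCDD arrays (limma adjusted p = 0.00342) and -0.19 on vehicle arrays (limma adjusted p = 0.709), with 2 of 6 pituitary and 5 of 6 hypothalamus arrays detected.

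Other energy genes can be set beside the subunits, from lists chosen with earlier results of these data known. Each count stands beside 28.8% lower and 35.8% higher among all tested probes on TCDD arrays, and 28.5% lower and 35.6% higher on vehicle arrays. Of 15 tested glycolysis genes, 14 were lower and 0 higher in the pituitary on TCDD arrays, and 12 were lower and 1 higher on vehicle arrays, with medians of -1.13 and -0.81. Aldoc, an aldolase known from brain, differed by -2.69 and -2.85 (limma adjusted p = 3.95e-11 and 2.69e-11). Ldhb, the heart-type lactate dehydrogenase subunit, differed by -3.24 and -3.08 (limma adjusted p = 5.86e-11 and 8.93e-11). Hk2, a hexokinase, was the one that was higher, at 0.45 on vehicle arrays (limma adjusted p = 0.00952) and 0.19 on TCDD arrays (limma adjusted p = 0.230). Of 15 tested genes of the citric acid cycle and pyruvate dehydrogenase, 9 were lower and 2 higher on TCDD arrays, and 8 were lower and 1 higher on vehicle arrays, with Idh3b at -1.21 and -1.15 (limma adjusted p = 9.62e-08 and 1.67e-07) and Pdhb at 0.61 and 0.50 (limma adjusted p = 1.02e-04 and 5.37e-04).

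Genes of the mitochondrial ribosome and of mitochondrial biogenesis had calls in both directions. Of 35 tested large-subunit ribosomal genes, 8 were lower and 6 higher on TCDD arrays, and 10 were lower and 8 higher on vehicle arrays, which is near or below the shares of all tested probes and not read as a result about these genes. Of 9 tested biogenesis regulators, 2 were lower in both contrasts, and 3 were higher on TCDD arrays and 4 on vehicle arrays. These counts too are near the shares of all tested probes and are not read as a result about the group. Gabpa, the DNA-binding subunit of GABP, whose ETS core stands in Cox8a above, was higher in the pituitary at 1.29 and 1.13 (SE 0.0895 each, limma adjusted p = 6.53e-08 and 2.29e-07). Tfam, the factor that packs and transcribes mitochondrial DNA, was higher at 0.76 and 0.72 (limma adjusted p = 4.82e-05 and 7.92e-05). Twnk, the mitochondrial DNA helicase, was lower at -0.58 and -0.48 (limma adjusted p = 2.71e-04 and 0.00122), and so was the coactivator Ppargc1a, at -0.83 and -0.54 (limma adjusted p = 5.41e-04 and 0.00956), detected on 1 of 6 pituitary arrays. The probes of Nrf1 and Gabpb1 were detected on no array.

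Within the pituitary and within the hypothalamus, maternal TCDD was set against vehicle, which is the comparison the groups were made for. No member passed an adjusted p of 0.05 in either tissue. In the pituitary, 60 members were tested and 0 were called, as were 0% of all 10251 probes tested (limma, two-sided). At an unadjusted p under 0.05 there was 1 member, Ndufaf4, beside 6.03% of all probes, and 8 members had groups that did not overlap, 6 higher and 2 lower with TCDD, beside 11.1% of all probes. In the hypothalamus, 67 members were tested and 0 were called, beside 0.00889% of 11246 probes, which is 1 probe. There 3 members had an unadjusted p under 0.05, beside 5.37% of all probes, and 7 had groups that did not overlap, 4 higher and 3 lower, beside 10.9%. The members' shares therefore lay near or below those of all probes.

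The intervals show how large an effect these arrays could still hold. The 95% confidence interval from the fit lay within 1.5-fold in either direction for 59 of 60 members in the pituitary, all but Ndufaf6, and for 63 of 67 in the hypothalamus, all but Atp5mk, Cox6a2, Cox8b and Ndufaf2. The median member differed by 0.01 in the pituitary and 0.02 in the hypothalamus, beside 0.00 (0.001) and 0.00 (0.003) for all probes. By complex, the mean difference TCDD minus vehicle ran between -0.06 and 0.02 in the pituitary and between -0.04 and 0.11 in the hypothalamus, complex II giving -0.06 and 0.11.

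Ndufaf4, an assembly factor that works with Ndufaf3, had the smallest unadjusted p in the pituitary. Normalized within the tissue, it measured 6.96, 7.05 and 6.85 with TCDD and 7.22, 7.13 and 7.31 with vehicle in the pituitary, a difference of -0.26 (SE 0.0961, limma unadjusted p = 0.0245, adjusted p = 0.773). In the hypothalamus it measured 7.31, 7.27 and 7.40 with TCDD and 7.14, 7.07 and 7.09 with vehicle, a difference of 0.23 (SE 0.0988, limma unadjusted p = 0.0493, adjusted p = 0.883). The TCDD groups thus lay below vehicle in one tissue and above it in the other, with no overlap in either. The pituitary effect minus the hypothalamus effect was -0.49 (SE 0.126, limma interaction, unadjusted p = 0.00199, adjusted p = 0.668).

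Ndufaf6, another assembly factor, measured 9.20, 9.13 and 9.88 with TCDD and 8.90, 8.97 and 9.12 with vehicle in the pituitary. The difference of 0.41 (SE 0.19, limma adjusted p = 0.849) leans on 1 array, TCDD replicate 3, and is 0.172 without it. In the hypothalamus it was -0.20 (limma adjusted p = 0.883), and the difference between tissues was 0.60 (SE 0.235, limma unadjusted p = 0.0253, adjusted p = 0.747). Over the 67 members the interaction gave 0 calls, beside 0% of all 12071 probes, and 4 members at an unadjusted p under 0.05 (Ndufaf4, Ndufaf6, Atp5mk and Cox8a), beside 6.17% of all probes.

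In the hypothalamus Cox8b measured 5.25, 5.32 and 5.74 with TCDD and 6.45, 6.04 and 5.75 with vehicle. The groups nearly met but did not overlap, and the difference was -0.64 (SE 0.203, limma unadjusted p = 0.0130, adjusted p = 0.883). Cox8a lay lower with TCDD too, at 13.08, 13.09 and 13.10 against 13.51, 13.29 and 13.20 with vehicle, a difference of -0.24 (SE 0.114, limma adjusted p = 0.883). Atp5mk measured 6.77, 6.31 and 7.61 with TCDD and 6.19, 5.09 and 6.10 with vehicle, 1.10 higher (SE 0.376, limma unadjusted p = 0.0189, adjusted p = 0.883), on a probe detected on 5 of 6 of these arrays and spread widely within both groups.

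**Figure D4:**
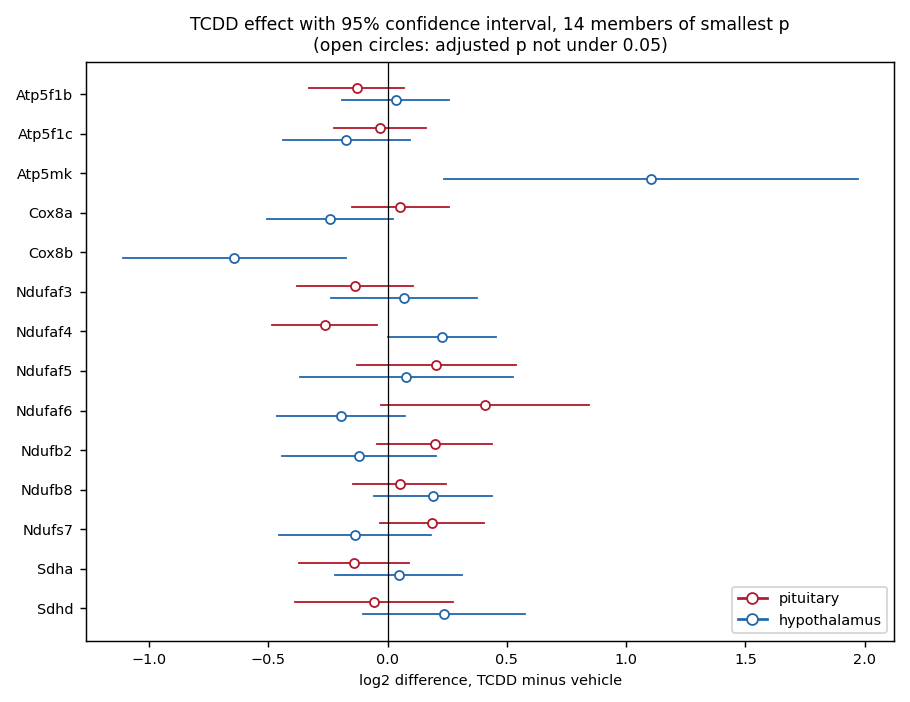
Log2 difference TCDD minus vehicle with its 95% confidence interval for the 14 members of smallest p per tissue and direction, pituitary in red above hypothalamus in blue; all points are open because no adjusted p was under 0.05. Ndufaf4 lies at -0.26 in the pituitary and 0.23 in the hypothalamus, and Atp5mk and Cox8b were tested in the hypothalamus only.

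The remaining members named by smallest p did not pass either. In the pituitary these were Ndufs7 at 0.19, Ndufb2 at 0.20, Ndufaf5 at 0.20, Atp5f1b at -0.13, Sdha at -0.14 and Ndufaf3 at -0.14, each with a limma adjusted p of 0.849 to 0.902. In the hypothalamus they were Ndufb8 at 0.19, Sdhd at 0.24 and Atp5f1c at -0.17, each with a limma adjusted p of 0.883. Of the tested glycolysis genes, citric acid cycle genes, biogenesis regulators and complex IV assembly genes, 0 passed in either tissue.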

How the data were processed

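Deposited values were used as they came. The main table holds, per the file headers, a signal intensity per probe and array that the authors had not normalized and a detection p-value beside it; the scanner software is not named by the sources at hand. A second deposited table holds intensity values that the authors normalized for each tissue on its own, per the series text, by a method not stated; it served as an alternative for TCDD against vehicle. The members, the gene lists and the tests were chosen with earlier results of these data known.

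Signals were background-corrected with limma's nec (offset 16, background from the detection p-values), then quantile normalized and log2 transformed (R 4.3.3, limma 3.58.1). The offset draws folds of dim probes toward 1. All 12 arrays were processed together for the tissue contrasts and the interaction, and each tissue's 6 arrays on their own for TCDD against vehicle. Probes entered a test when at least 3 arrays of that fit had a detection p under 0.05. lmFit and eBayes were run two-sided on 4 groups or on 2, without a block, adjusted by Benjamini-Hochberg over all probes tested, and fits were tested on simulated data. With 3 arrays per group an exact permutation test cannot go below 0.1, so p-values come from the fit over all probes. The number of arrays limits the precision of each value. Where a probe was detected on no array of 1 group, each array of that group was set to the lowest value among its detected probes, or to the probe's own value where that was higher. The fold is then a lower bound for background-corrected values only, given as at least N-fold.

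Members were named by these rules: tissue-type isoform families and complex II; per complex and direction, the 3 largest tissue differences on vehicle arrays among members past the threshold in both contrasts (an order on TCDD arrays would have put Ndufaf2 and Ndufb3 before Ndufb6 and Ndufs7, and Atp5f1b before Atp5pd); per tissue and direction, the 4 of smallest p for TCDD; the 2 of smallest p for the interaction; and members detected on 0 arrays of 1 tissue and 6 of the other; others were named after their values were seen, as said beside them. No gene had more than 1 member probe. The platform annotation gave 1 symbol to 13793 probes, several to 0 and none to 8730. Ndufa10l1 and Ndufs6-ps1 are close copies of Ndufa10 and Ndufs6, so their signals are uncertain. Ndufs6 itself is not among the members. Alternatives were median scaling, cyclic loess, no background correction, stricter and no detection filters, 1 probe per gene, eBayes with trend and robust, blocks, other sets of arrays, the authors' table, and leaving out each array. Promoters and their coordinates come from RefSeq, build GRCr8; the array files name no build.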

Additional observations from a re-analysis of the deposited data

Results flagged for a closer look

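For Ndufaf4 the TCDD effect ran in opposite directions in the 2 tissues, with lower values in the pituitary and higher ones in the hypothalamus, and with no overlap of TCDD and vehicle arrays in either. The difference of the 2 effects was -0.493 on the log2 scale (SE 0.126, limma interaction, unadjusted p = 0.00199). It did not pass the adjustment over all 12071 probes (adjusted p = 0.668), and its unadjusted p was the smallest of the 67 members. Members were flagged for opposite effects without overlap or for passing the interaction test, so the separation is what picked Ndufaf4 and lends it no support. The share of all probes with this pattern was not counted.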

How the results depend on the processing

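The counts of members lower in the pituitary held within 1.5 times under every alternative run, and leaving out 1 array gave 36 to 42 on TCDD arrays and 38 to 41 on vehicle arrays. The small counts of members higher in the pituitary moved more. On vehicle arrays 5 became 2 with median scaling and 2 with cyclic loess, and leaving out 1 array gave 3 to 7, with 3 without pituitary vehicle replicate 1 or hypothalamus vehicle replicate 1. On TCDD arrays 2 became 4 with the replicate block, and leaving out 1 array gave 2 to 4, with 4 without pituitary TCDD replicate 2 or hypothalamus TCDD replicate 3. TCDD against vehicle and the interaction gave 0 member calls under every alternative run. Arrays of a tissue with the same replicate number had deviations correlated at 0.078 to 0.244, not all above 0.1. Hypothalamus vehicle replicates 1 and 2 correlated better with a TCDD array of another replicate number, at 0.255 and 0.152. The array titles carry a second set of numbers, and those better matches share a title number. The arrays were not treated as pairs, though whether either set of numbers pairs them is not settled. Across tissues, 2 pairs of arrays with the same agent share a title number, so the arrays of the tissue contrasts may not be independent. Their deviations correlated at -0.206 and 0.105. A block by title number was run for the tissue contrasts only, and not for TCDD against vehicle. It gave 41 members lower and 2 higher on TCDD arrays, and 41 lower and 5 higher on vehicle arrays. With the replicate block, members lower were 41 on TCDD arrays and 39 on vehicle arrays, and the vehicle calls of Cox7a2l and Sdhb were lost (limma adjusted p = 0.0598 and 0.0546).

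Signs turned mostly for small differences. With median scaling and cyclic loess, Atp5mc1 became -0.044 and -0.036 on TCDD arrays and -0.04 and -0.019 on vehicle arrays, and Uqcrfs1 became -0.105 and -0.031 on TCDD arrays and -0.07 and -0.025 on vehicle arrays. On TCDD arrays Cox7a2l became -0.155 and -0.078, and with median scaling Ndufaf3 became -0.095 and Ndufaf6 -0.147. Leaving out 1 array gave, on TCDD arrays, -0.034 to 0.067 for Atp5mc1, -0.119 to 0.042 for Atp5mc2 and -0.079 to 0.288 for Ndufaf6. On vehicle arrays it gave -0.027 to 0.13 for Atp5mc1, -0.048 to 0.048 for Atp5mc2, -0.057 to 0.102 for Cox7b, -0.231 to 0.052 for Sdhd and -0.6 to 0.102 for Atp5mk. Differences were recomputed for a set of named members and not for all 67, and the set left out Atp5f1d, Atp5pf and Atp5mg. Of the differences recomputed, 1811 kept direction and side of the threshold, 49 lost it, 17 gained it and 26 turned. The causes were not tested. Probes near background, such as Cox6c, Ndufb4 and Atp5mc3, limit what can be said of their genes.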
